A study of Mus musculus with 6 samples.

Results

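Mouse embryonic stem (ES) cells that overexpressed Prdm14 were compared with ES cells that carried a control vector, and the genes described here are those whose probes stood above background in the control cells and not in the Prdm14 overexpression cells. A probe was chosen when its detection p, the rank of its signal among the negative control beads of the same array, was under 0.01 on all 3 control arrays and at or above 0.01 on all 3 Prdm14 overexpression arrays, and when the platform annotation gave it 1 gene symbol. Of 45281 probes on the array 97 met the detection rule, 14 of them unlisted in the annotation used or without a single symbol. That annotation listed 13784 probes, and the rest of the array could not be named. After 10 genes were left out (Muc13, Lad1, Prss8, Slc40a1, Gpx2, Acta2, Krt18, Fos, Gbp2 and Pramel19), 72 probes of 69 genes remained, of 9166 genes named in all. Ap1m2 was represented by 3 of these probes, Pwwp2b by 2 and each other gene by 1. All 69 genes are protein coding. The members were chosen by the same contrast that their values describe, so those values are given without a test and are no evidence of a direction.

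Both groups were ES cells of 129P2 background derived from a line with a Rex1-GFPd2 reporter and grown with serum, 3 arrays with Prdm14 overexpression and 3 with the control vector. Replicates of a group were successive passages, and no separate clones are named. A difference between the lines made with the 2 vectors and an effect of Prdm14 therefore cannot be told apart. PRDM14 is a zinc finger protein with a PR domain that is needed to specify primordial germ cells and that helps to hold ES cells in the pluripotent state. It is known to recruit Polycomb repressive complexes and to repress genes of lineage commitment, fibroblast growth factor signalling and DNA methylation. In serum, ES cell cultures are mixed, and some cells turn on genes of the epithelium-like epiblast while the rest stay naive.

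The brighter Prdm14 probe had signals of 14907, 10751 and 11016 on the Prdm14 overexpression arrays and 801, 673 and 855 on the control arrays. Every array called 31.1% to 32.6% of its probes detected. All 10 ES cell markers examined were detected on all 6 arrays, with summed signals of 76460 to 86933 in the Prdm14 overexpression cells and 65204 to 74776 in the control cells. Of the markers of other cell types only a minority were named by a listed probe: 4 of 10 for primitive endoderm, 3 of 8 for trophectoderm, 1 of 8 for fibroblasts, 1 of 6 for mesoderm and 0 of 6 for neural cells. The primitive endoderm probes summed to 764 to 950 with Prdm14 and 558 to 701 with the control vector, the trophectoderm probes to 4623 to 6431 and 3852 to 4414, the fibroblast probe Thy1 to 304 to 366 and 265 to 322, and the mesoderm probe Gsc to 369 to 597 and 218 to 268. All these sums are of deposited signals without background correction, and background was brighter on the Prdm14 overexpression arrays. After normalisation the log2 differences (Prdm14 overexpression minus control) of Hnf4a and Sox7 of primitive endoderm were -0.04 and 0.38. Those of Gata3 and Tfap2c of trophectoderm were -0.20 and 0.24, that of Thy1 -0.15 and that of Gsc 0.79. None of these passed limma at an adjusted p under 0.01. The part of such cells in the values below was not tested.

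Background differed between the groups, and this bears on each value that follows. Among probes that no array detected, the median signal was 81.2, 73.3 and 73.6 on the Prdm14 overexpression arrays and 59.6, 61.3 and 62.8 on the control arrays. The lowest signal that counted as detected was 154, 126 and 137 on the Prdm14 overexpression arrays and 109, 112 and 128 on the control arrays. A probe of equal brightness could thus be detected in control cells and fall below the limit in Prdm14 overexpression cells. Folds are given as lower bounds on the background-corrected, quantile-normalised log2 scale: the control mean was set against the mean, per Prdm14 overexpression array, of the probe's own value or the lowest value of any detected probe, whichever was higher. They are bounds on this scale alone, not under other background corrections. No member was detected on a Prdm14 overexpression array, so the lowest detected values (6.09, 6.15 and 6.19) were used for every member. The bound therefore follows the control level alone. In bulk RNA, fewer cells that express a gene and less RNA of it per cell cannot be told apart.

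The members were dim. Their mean deposited signal ran from 72.2 to 137 in Prdm14 overexpression cells (median 118) and from 119 to 395 in control cells (median 139). Over all 14604 tested probes the median control signal was 390. On the normalised scale the median member stood at 6.63 in control cells, and 12.3% of tested probes were dimmer there. The loss was a rare pattern: 0.716% of the probes detected on all 3 control arrays showed it, and 0.962% of the probes detected on all 3 Prdm14 overexpression arrays showed the reverse.

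Only 9 members had control signals that were above the detection limit of every Prdm14 overexpression array, 154 at the highest: Zp3, Car4, Rbp7, Gadd45g, Bcam, Irgm1, P3h4, Lgals9 and Foxh1. For the other 60 genes at least 1 control signal was no higher than that limit. Deposited signals of the 2 groups did not overlap for 31 of the 72 probes, against 1.62% of all tested probes, and after normalisation for all 72, against 14.0%. The rule used this contrast, and nothing is read from either count. For 7 genes the mean deposited signal was at least as high in Prdm14 overexpression cells: Arhgap45, Acpp, Mbd3l2, Kdm6a, Hnrnpul1, Pde4dip and Lpin1.

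**Figure D1:**
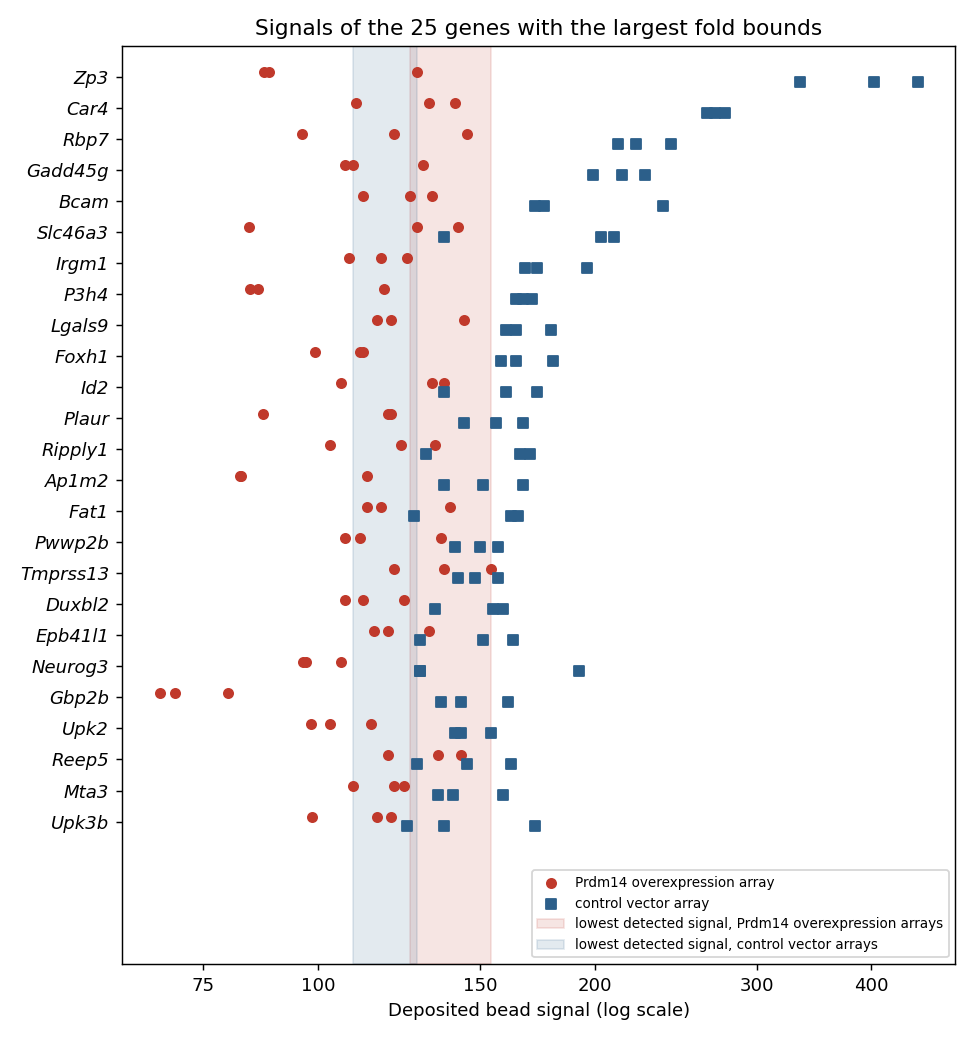
Deposited bead signal (log axis) on the 3 Prdm14 overexpression arrays (circles) and the 3 control vector arrays (squares) for the 25 genes with the largest fold bounds, the first member probe of each gene. Shaded bands span the lowest detected signals of the 3 arrays of each group, 126 to 154 and 109 to 128. Zp3 and Car4 stand furthest from both bands in control cells, and for genes lower in the plot the points of the groups approach each other.

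Zp3, which encodes a glycoprotein of the zona pellucida, the coat of the egg to which sperm bind, had the largest bound. Its signals were 128, 87.3 and 88.4 in Prdm14 overexpression cells and 403, 334 and 449 in control cells. The groups were far apart, with no control signal near those of the Prdm14 overexpression arrays. On the normalised log2 scale it averaged 5.28 ± 0.30 with Prdm14 and 8.59 ± 0.18 with the control vector (SD, n = 3 each), at least 5.45-fold lower on this scale. The size rests on the background correction: the mean deposited signal was 3.91 times higher in control, and the log2 difference of -3.31 was -2.52 at offset 50, -2.28 on uncorrected signals and -1.36 on the deposited normalized values matched to arrays. Only 1 other gene of the oocyte and zona pellucida list, Khdc3, passed the threshold among the 7 tested, and it was higher.

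Car4, a carbonic anhydrase anchored to the outer face of the cell membrane, came next. Its signals were 141, 110 and 132 with Prdm14 overexpression and 265, 277 and 270 with the control vector. The control arrays were within a narrow range and clear of the others. The log2 level was 5.90 ± 0.17 and 7.95 ± 0.16 (SD, n = 3 each, Prdm14 overexpression first), at least 3.5-fold lower. Rbp7, a carrier protein for retinol, had 145, 121 and 96 in Prdm14 overexpression cells and 222, 242 and 212 in control cells. This gave a bound of 2.79-fold, and the Prdm14 arrays were the more scattered ones (log2 SD 0.41, against 0.26 in control).

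Gadd45g belongs to a family of small stress-response proteins that act on mitogen-activated kinase cascades and the cell cycle. The member probe read 130, 107 and 109 in Prdm14 overexpression cells and 227, 214 and 199 in control cells, a bound of 2.6-fold. Bcam, an adhesion molecule that binds laminin, read 133, 112 and 126 against 176, 172 and 237, a bound of 2.27-fold. Neither gene's signals overlapped between the groups. P3h4, an endoplasmic reticulum protein that takes part in collagen modification, read 118, 85.9 and 84.2 against 164, 167 and 171, a bound of 1.88-fold and a log2 difference of -1.87 ± 0.13 (SE). Its fitted difference was close to those of Rbp7 and Gadd45g (both -1.88), while its bound was smaller, its control level being nearer the limit.

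Foxh1 is the forkhead factor that recruits activated Smad proteins to DNA downstream of Nodal. Its member probe read 112, 99.1 and 111 in Prdm14 overexpression cells and 164, 158 and 180 in control cells, a bound of 1.86-fold, and the control arrays were close together (log2 SD 0.04). Lgals9, a galectin induced by interferon, read 144, 116 and 120 against 179, 160 and 164, a bound of 1.87-fold. These signals were separate, but by the smallest margin of the 9. Irgm1, an interferon-induced GTPase that acts against pathogens inside cells, read 117, 125 and 108 against 173, 196 and 168, a bound of 2.05-fold.

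Ranking by bound follows the control level, and Gbp2b had a larger log2 difference (-2.02) than Rbp7 and Gadd45g (both -1.88). The promoters of the 4 genes with the largest bounds are shown. Each is a RefSeq window of 300 bases (build GRCm38.p6), 5′ to 3′ on the gene's strand, around the annotated start. Capitals mark every match, on either strand, to 1 of 7 motifs searched. The core of the sequence bound by PRDM14 was searched as GGTCTC and in its longer form GGTCTCTAA, which contains the core. The site of NRF2 and related factors was searched as TGACNNNGC, and that of grainyhead-like factors as AACCGGTT. The E-box was searched as CACGTG. For the GC box the letters were GGGCGG. The TATA element was searched as TATAAA.
Zp3 (chr5:135979855-135980154, + strand): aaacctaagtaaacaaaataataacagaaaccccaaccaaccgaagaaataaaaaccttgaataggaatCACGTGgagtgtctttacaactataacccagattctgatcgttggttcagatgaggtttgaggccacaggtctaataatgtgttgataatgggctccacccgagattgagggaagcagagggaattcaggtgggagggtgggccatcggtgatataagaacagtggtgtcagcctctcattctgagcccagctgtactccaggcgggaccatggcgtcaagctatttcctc
Car4 (chr11:84957504-84957803, + strand): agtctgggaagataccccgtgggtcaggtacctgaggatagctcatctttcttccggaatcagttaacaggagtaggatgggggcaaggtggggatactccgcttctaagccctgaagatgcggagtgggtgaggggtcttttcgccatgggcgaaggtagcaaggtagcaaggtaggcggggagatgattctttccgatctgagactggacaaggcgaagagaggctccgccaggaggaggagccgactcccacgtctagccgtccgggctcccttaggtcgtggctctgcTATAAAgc
Rbp7 (chr4:149454919-149455218, - strand): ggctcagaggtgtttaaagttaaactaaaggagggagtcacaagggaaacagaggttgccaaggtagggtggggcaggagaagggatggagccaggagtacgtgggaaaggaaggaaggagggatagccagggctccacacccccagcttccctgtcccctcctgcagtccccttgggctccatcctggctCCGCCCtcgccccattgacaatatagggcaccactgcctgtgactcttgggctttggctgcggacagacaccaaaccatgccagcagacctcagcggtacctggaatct
Gadd45g (chr13:51846425-51846724, + strand): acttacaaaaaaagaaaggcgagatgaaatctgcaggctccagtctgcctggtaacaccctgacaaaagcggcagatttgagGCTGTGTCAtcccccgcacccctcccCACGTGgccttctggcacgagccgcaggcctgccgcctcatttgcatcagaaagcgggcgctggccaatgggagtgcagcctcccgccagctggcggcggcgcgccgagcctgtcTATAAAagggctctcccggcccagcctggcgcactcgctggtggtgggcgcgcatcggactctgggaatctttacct

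Zp3 had 1 match, to the E-box. E-boxes are the elements through which the oocyte factor FIGLA acts on the zona genes. Car4 had 1 match to the TATA element and Rbp7 1 match to the GC box, in reverse orientation. Gadd45g had matches to the NRF2 site, the E-box and the TATA element. None of the 4 windows held the PRDM14 core, which says only that these letters were not in them. RefSeq windows were found for 53 of the 69 genes, 69 windows in all, and those on chromosome 18 were not used. The PRDM14 core was in 14 of them (20.3%), compared with 18.3% of 8899 windows of tested genes and 16.4% of all 32851 windows. Its longer form and the grainyhead-like motif were in none of the members' windows and in 0.303% and 0.292% of those of tested genes. The NRF2 site was in 18.8% of members' windows (13.9% of tested genes' windows, 12.4% of all), the E-box in 14.5% (10.5%, 7.15%), the GC box in 56.5% (63.9%, 35.7%) and the TATA element in 7.25% (6.92%, 13.6%). The median window of a member held 14 CpG dinucleotides, that of a tested gene 21 and that of any gene 7. Windows with 5 or fewer CpG made up 27.5% of the members' windows, 10.8% of the tested genes' and 43.6% of all. These shares are descriptions, and a match is not evidence of binding.

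Genes of the cell surface, adhesion and secreted proteases were the largest set by role, 15 genes with 17 probes. The sorting adaptor Ap1m2 was counted in this set although it is not itself a surface protein. Roles were assigned after the values were known. The log2 differences of these probes ran from -1.73 to -0.63 with a median of -1.39, compared with -0.96 over all 72 members and 0.008 over all tested probes. The deposited signals did not overlap for 12 of the 17, against 31 of all 72 members and 1.62% of all tested probes, and nothing is read from this in probes chosen by the same contrast. Ap1m2, the medium chain of the clathrin adaptor that sorts proteins to the basolateral membrane of epithelial cells, was the one gene lost by 3 probes. They read 113, 82.1 and 82.5, 117, 97.7 and 82.9, and 98.1, 84.8 and 83.9 in Prdm14 overexpression cells, against 151, 137 and 167, 157, 164 and 130, and 129, 160 and 143 in control cells. None of the 3 overlapped between groups, and their bounds were 1.62-fold, 1.58-fold and 1.48-fold. Probes of 1 gene share its RNA and are not independent. These 3 are among the 17 and among the 12 above, and their log2 differences (-1.73, -1.53 and -1.67) lay below the set's median.

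Plaur, the receptor that holds urokinase at the cell surface, read 120, 119 and 87 with Prdm14 overexpression and 144, 167 and 156 with the control vector, at least 1.68-fold lower. Upk2, a uroplakin of the bladder lining, read 103, 98.1 and 114 against 141, 143 and 154, at least 1.53-fold lower. The groups were separate for both. Upk3b, a related protein of mesothelium, read 120, 98.4 and 116 against 137, 125 and 172. Tmprss13, a membrane-bound serine protease, read 154, 121 and 137 against 142, 148 and 157. For Tmprss13 the groups overlapped, and on the first Prdm14 overexpression array it lay just under the detection limit. Fat1, an atypical cadherin, also overlapped, with 139, 113 and 117 against 127, 162 and 165.

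Prom2, a pentaspan protein of membrane protrusions, read 98.1, 88.2 and 89.7 in Prdm14 overexpression cells and 119, 138 and 135 in control cells. Tmem54 read 106, 82.5 and 81.3 against 133, 138 and 130, and Tmem45b 108, 98.4 and 116 against 130, 140 and 150. All 3 were dim and separate between groups, with bounds of 1.28-fold, 1.34-fold and 1.44-fold. Igsf23, of the immunoglobulin superfamily, and Lypd2, of the Ly6 family, had log2 differences of -1.43 ± 0.13 and -1.67 ± 0.19 (SE). The remaining surface genes, the Ly6 family gene Ly6g6c, the kallikrein protease Klk7 and the muscle cadherin Cdh15, overlapped between groups, with bounds of 1.25-fold, 1.14-fold and 1.13-fold.

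To set these genes beside others of their kind, a whole list of epithelial junction and identity genes was counted, itself chosen with earlier results of these data known. Of its 36 tested genes 20 passed as lower (limma, adjusted p under 0.01) and 0 as higher (also 0 at an unadjusted p under 0.05). Their median log2 difference was -0.78. The 36 include 8 members, chosen by this same contrast, so nothing is read from the 20 or from the median. Over all 8529 tested genes, each by its brightest probe, 2.50% passed as lower and 1.50% as higher. Of the 20, 7 were members described here (Ap1m2, Bcam, Prom2, Tmem45b, Tmem54, Tmprss13 and Upk2) and 13 were not members. Those 13 included the claudins Cldn4 (-1.96 ± 0.13, SE) and Cldn6 (-1.83 ± 0.11) and the splicing regulator Esrp1 (-2.34 ± 0.14). Ovol1, a zinc finger factor of epithelia, was a member and overlapped, with 141, 115 and 127 in Prdm14 overexpression cells and 118, 143 and 129 in control cells. The grainyhead-like factor Grhl2 passed as lower (-1.28 ± 0.15) and its relative Grhl3 did not (-0.02 ± 0.13).

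The interferon set held 3 members, Gbp2b, Lgals9 and Irgm1, whose member probes were separate between groups. Gbp2b, a guanylate-binding protein that attacks the vacuoles of pathogens, read 79.7, 69.8 and 67.2 in Prdm14 overexpression cells and 136, 161 and 143 in control cells. Its mean signal with Prdm14 was the lowest of any member and close to the median of undetected probes on the same arrays. Its log2 difference was -2.02 ± 0.13 (SE), next in size to those of Zp3 and Car4, while its bound was 1.54-fold. Guanylate-binding protein genes are similar in sequence, and a probe may pick up more than 1 of them. Of the 8 tested genes of the interferon list 4 passed as lower, Gbp2b, Lgals9, Ifitm1 and Irf1, and 0 as higher. Over all 8529 tested genes 2.50% passed as lower and 1.50% as higher. The 8 include the 3 members, chosen by this same contrast, and of the 4 only Ifitm1 and Irf1 were not members. The 1 gene of the list higher at an unadjusted p under 0.05 was Irgm1, counted by a brighter probe (0.30 ± 0.09, SE) that went against its member probe.

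Among enzymes, carriers and channels were 12 genes, with a median log2 difference of -0.92. Beside Car4 and Rbp7, Slc46a3, a transporter of the lysosomal membrane, had 142, 84 and 128 in Prdm14 overexpression cells and 203, 137 and 210 in control cells. Its bound was 2.05-fold, but the second array of each group was low, the deposited signals overlapped, and the SE of its log2 difference was 0.28, the largest of any member. Between same-numbered arrays its log2 difference was steady, at -1.63, -1.67 and -1.32, and with the replicate as a block the SE was 0.10. Acsl5, which activates long-chain fatty acids, read 123, 90.6 and 97.9 against 114, 112 and 134. Slc5a4b of the sodium-glucose transporter family (-1.11 ± 0.16, SE), Mvk (mevalonate kinase, -0.94 ± 0.10), Ryr3 (a calcium release channel, -0.91 ± 0.13) and Chst12 (a chondroitin sulfotransferase, -0.86 ± 0.15) followed. Akr1c12, an aldo-keto reductase, Tcirg1, a subunit of the proton pump, and the transporter-like Mfsd6 lay between -0.68 and -0.61. Lpin1, a phosphatidate phosphatase, was the dimmest member in control cells after normalisation, with 151, 115 and 112 in Prdm14 overexpression cells and 109, 115 and 131 in control cells.

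Regulators of transcription, chromatin and RNA made up 11 genes with 12 probes. Id2, which blocks basic helix-loop-helix factors, read 137, 106 and 133 with Prdm14 overexpression and 160, 137 and 173 with the control vector. The bound was 1.69-fold for this probe, whose groups met at 137. A brighter Id2 probe differed by -0.58 ± 0.21 (SE) and overlapped between groups. Neurog3, the helix-loop-helix factor of endocrine pancreas progenitors, read 96.3, 106 and 96.9 against 129, 129 and 192, with the third control array well above the other two. Ripply1, a co-repressor of T-box factors in the somites, read 134, 103 and 123 against 166, 131 and 170 and overlapped. Pwwp2b, a chromatin reader, was lost by 2 probes, with 136, 111 and 107 against 141, 150 and 157, and 110, 91.1 and 112 against 118, 140 and 128. Both were separate between groups. Duxbl2, a double homeobox gene with near-identical copies that 1 probe may not distinguish, read 124, 112 and 107 against 155, 159 and 134. Mta3, a subunit of the NuRD complex, read 124, 109 and 121 against 135, 159 and 140.

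At the other end of this set, loss of detection went with signals that were as high or higher in the Prdm14 overexpression cells. Hnrnpul1, an RNA-binding protein of the hnRNP U family, read 150, 119 and 134 in Prdm14 overexpression cells and 112, 120 and 136 in control cells. Kdm6a, the X-linked demethylase that removes the Polycomb mark from histone H3, read 143, 121 and 133 against 110, 117 and 143. Mbd3l2, of the methyl-CpG-binding domain family, read 141, 118 and 126 against 118, 121 and 139. After background correction and normalisation their log2 differences were -0.30 ± 0.10, -0.35 ± 0.11 and -0.48 ± 0.09 (SE). The same held for Arhgap45 (-0.53 ± 0.11), Acpp (-0.43 ± 0.10), Pde4dip (-0.46 ± 0.12) and Lpin1 (-0.41 ± 0.12). For these 7 genes the direction of the difference depended on whether the deposited signal or the normalised value was read, and the part of the brighter Prdm14 overexpression background in it was not tested.

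**Figure D2:**
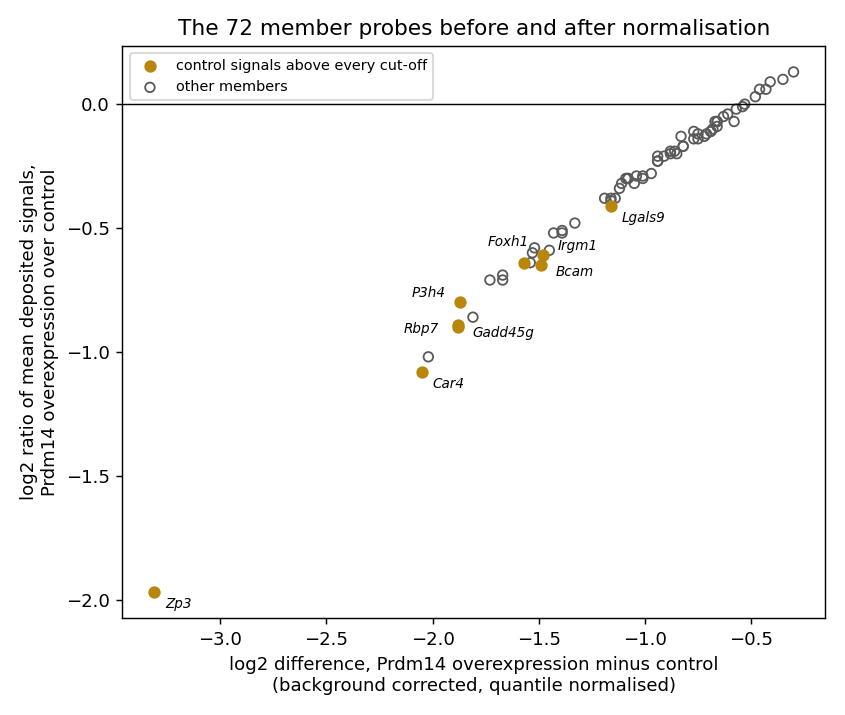
The 72 member probes by their log2 difference after background correction and quantile normalisation (horizontal) and by the log2 ratio of mean deposited signals (vertical), both Prdm14 overexpression over control. Filled points are the 9 members with control signals above every detection limit. All probes lie below 0 on the horizontal axis, and 7 lie at or above 0 on the vertical axis.

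Signalling and cell cycle genes numbered 10, and apart from Gadd45g they lay near the limit. For this set the median log2 difference was -0.68, and Gadd45g alone had separate signals. Rprm, which holds cells in G2 after DNA damage, read 153, 122 and 130 in Prdm14 overexpression cells and 130, 116 and 178 in control cells. Tnfrsf25 (a death receptor, -0.88 ± 0.24, SE), Cdk5r1 (the activator of a neuronal cyclin-dependent kinase, -0.82 ± 0.16), Dtx2 (a Notch pathway ubiquitin ligase, -0.82 ± 0.13), Acap3 (a GTPase-activating protein, -0.69 ± 0.13), Mapk12 (a p38 kinase, -0.66 ± 0.15), Cgrrf1 (a RING finger protein, -0.66 ± 0.12), Trib2 (a pseudokinase, -0.54 ± 0.14) and Arhgap45 made up the rest.

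The cytoskeletal and scaffold set held 7 genes. Mpp4, a membrane scaffold best known in photoreceptors, read 84.9, 73.4 and 66.9 with Prdm14 overexpression and 129, 127 and 153 with the control vector. It was clearly separate, and its log2 difference of -1.81 ± 0.10 (SE) was far larger than its bound of 1.37-fold. Epb41l1, which ties the spectrin skeleton to the membrane, read 119, 115 and 132 against 151, 129 and 163 and overlapped. Vill (villin-like, -1.08 ± 0.17), Amotl2 (of the angiomotin family, -1.04 ± 0.13), Sptbn4 (a spectrin, -0.85 ± 0.11) and Dst (the linker dystonin, -0.77 ± 0.14) were intermediate, and Pde4dip, a centrosome and Golgi scaffold, was the smallest.

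Organelle and traffic genes were Reep5, which shapes the endoplasmic reticulum (143, 119 and 135 in Prdm14 overexpression cells, 145, 128 and 162 in control cells), Hps3 and Rab38, both of lysosome-related organelles, the copine Cpne8 and Gdap1l1. Their log2 differences ran from -1.09 to -0.72, and the deposited signals of 1 of the 5, Cpne8, were separate. Beside P3h4, the matrix and innate immunity set held Sftpd, the lung collectin surfactant protein D (-0.88 ± 0.10, SE), Mrc1, the macrophage mannose receptor (-0.69 ± 0.13), and Acpp, the prostatic acid phosphatase. Fmr1nb, known in humans as a testis antigen, read 141, 113 and 118 against 122, 143 and 140. Sftpd, Mrc1 and Fmr1nb overlapped between groups.

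Loss of a probe was not always loss of the gene. For 22 of the 69 genes the array carried another named probe, 29 in all, and for 12 genes such a probe was above background on all 6 arrays. Irgm1 was the extreme case: its other probe read 20061, 19091 and 18009 in Prdm14 overexpression cells and 13822, 15146 and 13929 in control cells. That probe was bright and read higher with Prdm14 (0.30 ± 0.09, SE), opposite to the member probe (-1.48 ± 0.20). The files used here do not say which transcripts the probes report. Kdm6a, with 2988, 2257 and 2468 against 1947, 2432 and 2293 on the brighter of its other 2 probes, differed by -0.03 ± 0.10 and overlapped.

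Gadd45g, Acsl5 and Hps3 were lower on their brighter probes as well. Gadd45g read 655, 451 and 444 in Prdm14 overexpression cells and 1047, 1049 and 1021 in control cells (-1.42 ± 0.13, SE). Acsl5 read 823, 613 and 599 against 1311, 1284 and 1363 (-1.31 ± 0.11). Hps3 read 315, 192 and 239 against 454, 379 and 451 (-1.35 ± 0.14). The groups did not overlap on these 3 probes, and all 3 RNAs remained above background with Prdm14. Mta3 (4044, 3453 and 3622 against 4008, 3898 and 4347), Fmr1nb (2883, 2578 and 2453 against 2554, 3358 and 3284) and Fat1 (1685, 1348 and 1648 against 1430, 1976 and 1859) were bright and differed by -0.35 ± 0.10, -0.44 ± 0.11 and -0.41 ± 0.12.

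Dtx2, Id2, Dst and Pde4dip also stayed above background on another probe. The brighter Dtx2 probe read 1282, 824 and 857 in Prdm14 overexpression cells and 1128, 1269 and 1412 in control cells. Id2 read 260, 208 and 212 against 203, 332 and 235, and its groups overlapped. Pde4dip read 400, 304 and 367 against 235, 251 and 245 on its brightest probe, higher with Prdm14 (0.29 ± 0.11, SE), while another of its probes was at -0.54 ± 0.18. Of the 18 other probes above background on all 6 arrays, from 12 genes, 16 were below 0 after normalisation. The other 2, those of Irgm1 and Pde4dip, were above. The median over all tested probes was 0.008. Among the 16, those of Kdm6a (-0.03 and -0.06) and 1 of Dst (-0.04) lay next to 0. In mean deposited signal the Kdm6a and Dst probes among the 16 were higher with Prdm14, and the rest of the 16 were lower. The limma fit (adjusted p under 0.01) called 5 of the 18 lower, of Gadd45g, Acsl5, Hps3 and Dtx2, and 0 higher. It called 2.10% of all tested probes lower. Bcam, Foxh1 and Lgals9 had second probes near the limit. That of Bcam read 168, 99.4 and 187 in Prdm14 overexpression cells and 149, 132 and 163 in control cells, was detected on 2 Prdm14 overexpression arrays and overlapped between groups (-0.56 ± 0.30, SE). The others read 142, 132 and 131 against 176, 184 and 230 for Foxh1 and 182, 112 and 129 against 230, 227 and 222 for Lgals9, and each of these 2 was detected on 3 control arrays and 1 Prdm14 overexpression array.

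**Figure D3:**
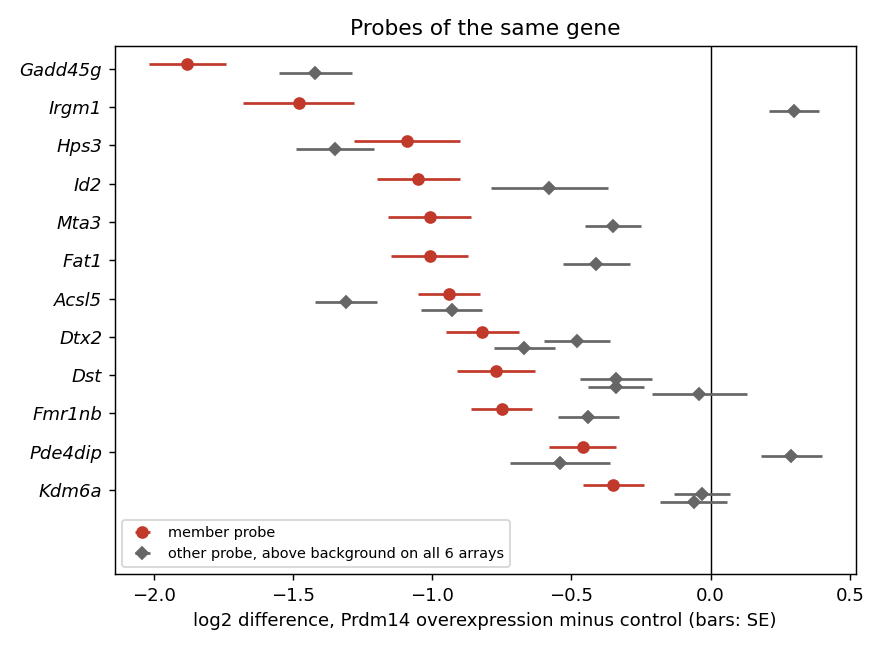
Log2 difference (Prdm14 overexpression minus control, bars SE, n = 3 arrays each) of the member probe and of other probes of the same gene that were above background on all 6 arrays, for 12 genes. Gadd45g, Acsl5 and Hps3 lie far below 0 on both kinds of probe, whereas the other probe of Irgm1 lies above 0 and those of Kdm6a lie next to 0.

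The members sat close to the rule's edge. The lowest detection p of a member on any Prdm14 overexpression array ran from 0.0107 to 0.451 with a median of 0.0219, and for 14 probes it was 0.05 or more. In control cells 17 probes had a detection p of 0 on all 3 arrays, and the highest value of any member was 0.00962, reached by 5 probes, among them those of Kdm6a, Mfsd6 and Acsl5. Just inside on the Prdm14 side were Tmprss13 and Rprm (0.0107) and then 9 probes at 0.0118, Pde4dip among them. Just outside on that side were Rpf1, Hes6 and Cphx1, each detected on the first Prdm14 array at 0.00962. Just outside in control cells were Asap3, Dmkn and Amdhd1, each with 1 control array at 0.0107. Dmkn, which encodes the skin protein dermokine, read 72.6, 83.8 and 71.9 with Prdm14 overexpression and 120, 145 and 123 with the control vector, a wider gap than most members had. Detection p moves in steps of 0.00107, so the probes on the 2 sides were 1 step apart. In all, 87 named probes missed the rule by 1 control array and 86 by 1 Prdm14 overexpression array.

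The choice was then repeated with 1 replicate number left out of both groups, and the arrays left out were examined. They had no part in that choice, although they came from the same 2 lines. With replicate 1 left out 135 probes were chosen, of which 72, the members themselves, were also lost between the arrays left out, 44 were detected on both, 15 on neither and 4 showed the reverse. With replicate 2 left out it was 72 of 140, and with replicate 3 left out 72 of 132. The 72 meet the rule on all arrays, so their number is the same each time by construction. The normalised value was lower on the Prdm14 overexpression array left out for 93.3%, 88.6% and 92.4% of the chosen probes. Over all named probes detected on the same control arrays, of any brightness, those shares were 50.1%, 49.4% and 49.8%. Normalisation had used all arrays together, those left out included, and the compared probes were not matched in brightness to the chosen ones. The part of the brighter Prdm14 overexpression background in these shares was not tested, so no direction is read from them. The median log2 difference on the arrays left out was -0.64, -0.54 and -0.68, smaller in size than the -0.74, -0.77 and -0.82 on the arrays that made the choice. In deposited signal the result was less uniform, with 49 of 135, 85 of 140 and 107 of 132 probes lower on the Prdm14 overexpression array. The first of these arrays had the brightest background.

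**Figure D4:**
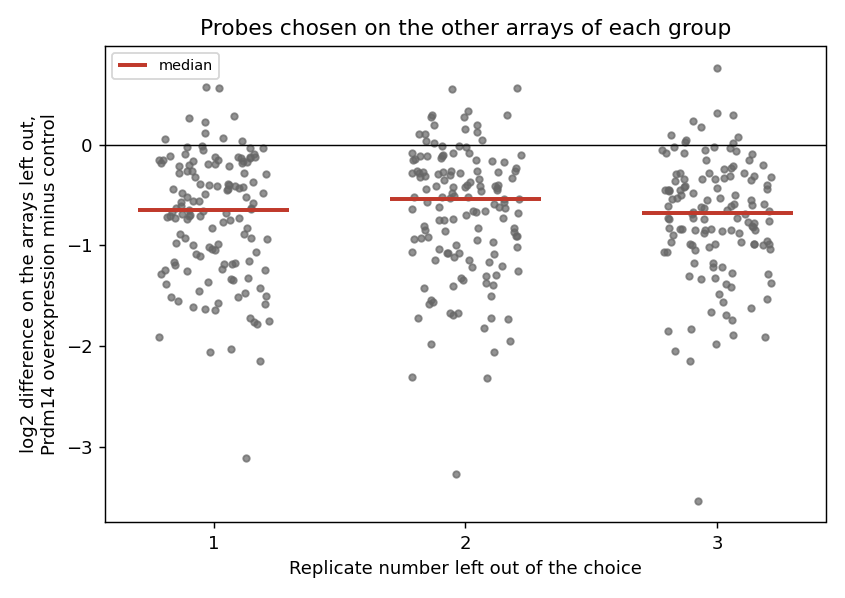
Log2 difference (Prdm14 overexpression minus control) on the arrays left out, for probes chosen on the other 2 arrays of each group, by the replicate number left out. Each point is 1 probe and red lines are medians of -0.64, -0.54 and -0.68. Most points lie below 0 on each pair, on values normalised over all arrays together.

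Across all 72 probes the limma fit called 46 lower at an adjusted p under 0.01, against 2.10% of all tested probes. A probe enters that fit when it is detected on at least 3 of the 6 arrays, and the members did so through the control arrays alone. The count is a description of probes chosen by the same contrast. Log2 differences of the 46 ran from -3.31 to -0.71 and those of the other 26 from -1.54 to -0.30. Differences were larger for probes that were brighter in control cells (Spearman's rho = -0.73 over 72 probes, which share arrays and a common floor). The control level is part of both quantities, and the rule kept every Prdm14 overexpression value under the limit. Nothing is read from rho. Among the control arrays the highest value of a member fell on replicate 1, 2 and 3 for 22, 31 and 19 probes, and among the Prdm14 overexpression arrays for 25, 20 and 27. The median SD of a member was 0.17 with Prdm14 and 0.18 with the control vector.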

How the data were processed

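Total RNA of 3 ES cell samples that overexpressed Prdm14 and 3 that carried the control vector was hybridised to Illumina Mouse WG-6 arrays. The authors deposited the bead signal intensity of each probe, not normalised, with its detection p-value. They also deposited normalized log2 values made with lumi, whose version is not stated. Of the 6 columns of that table, 4 correlated best with the signals of an array other than the one named, 2 of them in the other group, so it served only as an alternative. For the scanner software and the probes' genome build, the sources used here give nothing. The number of arrays limits the precision.

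Signals were processed with neqc of limma 3.58.1 (R 4.3.3, offset 16, quantile normalisation). Probes detected (p under 0.01) on 3 or more of the 6 arrays were tested with lmFit and eBayes, Benjamini-Hochberg adjusted, at a threshold of 0.01. SE is that of this fit, and p-values measure only the spread between passages. On simulated arrays the fit was checked for recovery of known changes. Those changes were placed on probes well above background, with the same background on every array. The check does not bear on probes near the limit, as the members are. Members and lists were chosen with earlier results of these data known. Named by a set rule were the 25 genes with the largest bounds, those in a gene list, those at the edges of the rule and those with another detected probe. The remaining members were named within their role, with signals, a log2 difference, a bound or a range. Same-numbered arrays deviated together (r = 0.121, 0.39 and 0.324, against -0.311 to 0.0582 for other combinations), most weakly for replicate 1. The numbers were taken to pair the samples. The main fit, its SE and its calls leave this pairing out, and a fit with the replicate as a block was an alternative. Probe names came from the platform annotation (13778 listed probes with 1 symbol), and all 69 genes matched RefSeq (GRCm38.p6). Alternatives were other normalisations, offsets, filters, detection thresholds, each array left out and the normalized table. Tables were made with Python 3.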

Additional observations from a re-analysis of the deposited data

How the results depend on the processing

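The number of genes, 69, followed the detection rule: it was 34 at a threshold of 0.05 in both groups, 12 when loss required 0.05 or more, 322 when 2 of 3 arrays sufficed, 84 to 112 with 1 array left out (112 without the first Prdm14 overexpression array, 104 without the second control array), and 9 when control signals had to be above every detection limit, an alternative chosen after seeing the data. Of 72 probes, 46 were called lower. The count was 18 without a detection filter, where 45281 probes were tested, and 24 on the deposited normalized values matched to arrays. With 1 array left out it was 24 to 36: 25 without the first Prdm14 overexpression array and 24 without the first control array. With the replicate as a block it was 51: 43 probes were called in both fits, those of Epb41l1, Hps3 and Dtx2 only without the block and 8 only with it. In all settings run, other than the deposited sample names, 14 probes of 13 genes stayed called, among them Zp3, Car4, Gadd45g, Bcam, P3h4, Foxh1, Ap1m2 and Gbp2b. On the normalized values under their deposited sample names limma called 0 of the 72 probes (also 0 at an unadjusted p under 0.05), 0 were separate between groups and the median difference was -0.10, since 2 columns stand in the other group. The median log2 difference, -0.96, was -0.54 on uncorrected signals, -0.64 at offset 50 and -0.26 on the matched normalized values. Median scaling moved the median of all tested probes to 0.13 and that of the members to -0.86. Of the probes chosen with 1 replicate number left out, 53.1% (216 of 407) were also lost on the arrays left out, and 61.9% (117 of 189) at 0.05. Those probes meet the whole rule and recur in each turn by construction, so nothing is read from the share.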
